A study of Homo sapiens with 8 samples.

Results

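The IL-1 family group described here held 10 genes of the 25369 in the deposited expression table, chosen by symbol, with no measured value in the rule. It comprised the cytokines IL1A, IL1B, IL18, IL33 and IL36G, the receptor antagonists IL1RN and IL36RN, the signalling receptor chains IL1R1 and IL1RAP, and the decoy receptor IL1R2. Transcripts were counted in EPC2-hTERT, human esophageal keratinocytes made immortal by telomerase, of genotype WT per the labels, which had been grown into a layered sheet on porous membranes with the upper surface in air (ALI culture). One group of 4 libraries came from cultures given 1 mM dimethyloxalylglycine (DMOG) in the final 18 h, and the other group of 4 from cultures given the DMSO vehicle over the same time. DMOG blocks the prolyl hydroxylases through which hypoxia-inducible factors (HIF) are normally destroyed, and the comparison asked what this does to gene expression in esophageal epithelium. All libraries come from a single cell line, and the labels name no immune or stromal cells in the cultures. Since nothing states whether the replicates were grown separately, the p-values speak only for the spread between these libraries, which may be technical.

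IL-1 cytokines are alarm signals of barrier tissues. IL-1α and IL-1β, encoded by IL1A and IL1B, bind IL1R1, which recruits the shared chain IL1RAP and signals through MYD88, IRAK kinases and TRAF6 to NF-κB. The IL-1 receptor antagonist, encoded by IL1RN, occupies IL1R1 without recruiting that chain, and IL36RN does the same at the IL-36 receptor. IL-1β and IL-18 are made as inactive precursors that caspase-1 cleaves, whereas keratinocytes store IL-1α and can release it when damaged.

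Of the 10 members, 7 lie on chromosome 2 (hg19 positions of the deposited table). IL1A (113531492 to 113542971, minus strand) and IL1B (113587337 to 113594356, minus strand) lie near IL36G (113735596 to 113743249), IL36RN (113816215 to 113822320) and IL1RN (113875470 to 113891593), all 3 on the plus strand. IL1R2 and IL1R1 are neighbours elsewhere on that chromosome, IL1RAP is on chromosome 3, IL33 on chromosome 9 and IL18 on chromosome 11. By those positions 0 members overlap another listed gene on either strand. The bases upstream of the start are shown for the 3 members that passed the test of the 6-library comparison below, since these neighbours on chromosome 2 moved in opposite directions. They are the 250 bases before the first RefSeq start listed (GRCh38.p14), 5′ to 3′ on the gene's strand, with IL1A at chr2:112784494-112784743 on the minus strand, IL1B at chr2:112836780-112837029 on the minus strand and IL36RN at chr2:113058388-113058637 on the plus strand. Capitals mark the core of the HIF binding motif (ACGTG or GCGTG) and the AP-1 motif (TGANTCA), found on either strand.
IL1A: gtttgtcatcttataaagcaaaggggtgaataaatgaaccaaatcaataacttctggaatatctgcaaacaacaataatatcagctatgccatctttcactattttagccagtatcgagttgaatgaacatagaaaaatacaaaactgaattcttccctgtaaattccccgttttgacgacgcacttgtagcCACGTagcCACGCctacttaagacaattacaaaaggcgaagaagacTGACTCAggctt
IL1B: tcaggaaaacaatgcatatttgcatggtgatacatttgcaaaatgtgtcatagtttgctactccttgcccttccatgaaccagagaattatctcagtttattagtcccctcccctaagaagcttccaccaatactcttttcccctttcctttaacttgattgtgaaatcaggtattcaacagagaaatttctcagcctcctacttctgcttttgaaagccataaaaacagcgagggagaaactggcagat
IL36RN: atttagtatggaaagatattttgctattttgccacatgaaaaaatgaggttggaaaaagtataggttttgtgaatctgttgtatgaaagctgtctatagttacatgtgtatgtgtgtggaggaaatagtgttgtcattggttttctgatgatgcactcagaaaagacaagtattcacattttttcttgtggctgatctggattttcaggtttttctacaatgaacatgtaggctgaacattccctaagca

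The IL1A window held 2 HIF cores, at 58 to 54 and 50 to 46 bases before the start, and 1 AP-1 motif at 12 to 6 bases. The windows of IL1B and IL36RN held neither, and a further IL36RN start listed by RefSeq had 1 HIF core. A further IL1A window, which overlaps the first, held 2 HIF cores and 2 AP-1 motifs. Members not called in the 6 libraries had matches as well. Windows 1 and 3 of IL1R1 held 1 HIF core each, and window 1 of IL1RN held 1 AP-1 motif. RefSeq windows were matched for 9 members, 18 windows in all. None of the 18 held the κB motif or the C/EBP-ATF motif (TGATGNAA). Over all 35116 windows of this length, 43.2% held a HIF core, 6.57% an AP-1 motif, 5.21% a κB motif and 3.14% a C/EBP-ATF motif, so a HIF core is common in such windows. These matches are letters in a window, not shown to be bound.

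Levels are given in RPKM, reads per kilobase of gene length scaled to the library total, which allows genes to be compared. IL1RN was by far the most abundant member, with 494 ± 110 RPKM in DMOG cultures and 592 ± 36.1 RPKM in vehicle cultures (SD, n = 4 each). It ranked between 105 and 165 among all listed genes in the DMOG libraries and between 96 and 118 in the vehicle libraries. IL1A and IL1B followed at 113 ± 44.1 and 90.8 ± 80.4 RPKM in DMOG cultures, against 179 ± 56.6 and 193 ± 58.0 RPKM in vehicle cultures, and these 2 cytokines overlapped each other in both groups. IL18 stood at 35.9 ± 6.49 RPKM with DMOG and 33.4 ± 1.58 with vehicle. IL36RN (19.6 ± 5.79 RPKM with DMOG, 13.9 ± 4.22 with vehicle) and IL1RAP (12.01 ± 1.12 with DMOG, 12.3 ± 0.711 with vehicle) came next, and their ranges overlapped in the vehicle libraries. IL36G had 3.74 ± 1.94 RPKM with DMOG and 5.87 ± 2.05 with vehicle, and IL1R1 had 2.32 ± 0.329 with DMOG and 3.21 ± 0.405 with vehicle. The cells thus held far more message for IL1A, IL1B and IL1RN than for the receptor IL1R1. IL33, an alarm cytokine stored in the nucleus, and IL1R2, which binds IL-1 without signalling, stayed under 1 RPKM in all 8 libraries and overlapped each other in the vehicle libraries. Library totals were 31245695 to 34171313 reads in genes with DMOG and 32707991 to 39931833 with vehicle.

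**Figure D1:**
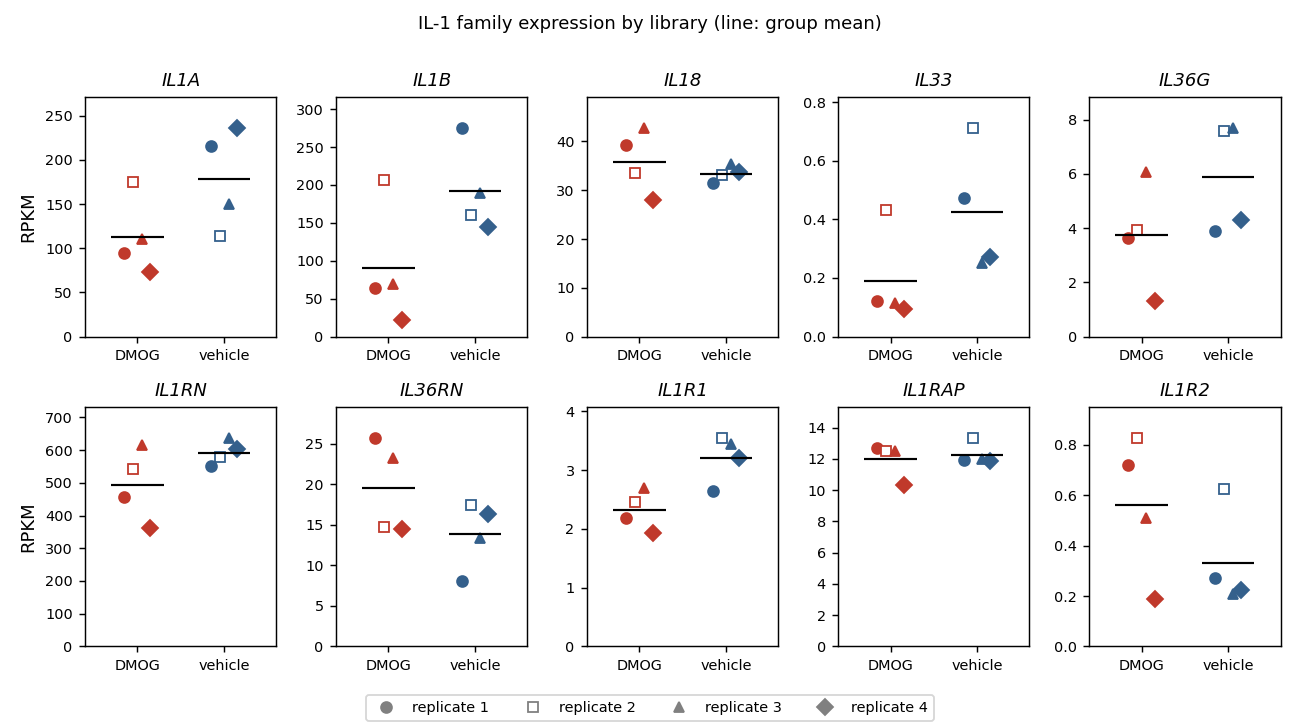
RPKM of each member in each library, DMOG left and vehicle right, with a linear axis from 0 in each panel, a symbol per replicate number and a line at the group mean. For IL1B, DMOG replicates 1, 3 and 4 lie between 22.3 and 69.2 RPKM and DMOG replicate 2 (open square) at 207, among the vehicle libraries at 145 to 275.

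The library of DMOG replicate 2 stood apart from its group before any member was considered. Its score on the first principal component of all tested genes, which took 65.5% of the variance, was -17.1, against 14.9 to 56.3 in the other DMOG libraries and -23.4 to -21.2 in the vehicle libraries. CA9, a carbonic anhydrase induced by HIF, had 25.2, 2.56, 9.97 and 57.5 RPKM in DMOG replicates 1 to 4, against 0.925, 1.295, 0.129 and 0.586 in vehicle replicates 1 to 4. Of 10 HIF target genes, 9 were higher over the 6 libraries named next (5 to 10 with a library left out) and 0 over all 8. Among all genes tested, 13.7% were higher over those 6 libraries and 0% over the 8. ENO2, CA9, EGLN3, NDUFA4L2, HK2 and ALDOA showed the largest fold changes among the 9 called (log2 fold changes 4.83, 4.28, 3.74, 3.65, 3.26 and 2.34, limma adjusted p between 0.00282 and 0.0226). CA9 needed the DMOG libraries to pass the filter on low values, so its place among the tested genes already favoured a difference. It was also called with no filter over the 6 libraries. The authors' own deposited comparison rests on replicates 1, 3 and 4 of each group and leaves out replicate 2 of both, and no source used here says why. Results are therefore given over all 8 libraries and over those 6. The choice of the 6 may itself rest on measured values, for which their p-values make no allowance. Log2 fold changes are DMOG over vehicle after adding 1 to RPKM scaled by median-ratio factors, a scale on which weakly expressed genes show too small a change.

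Over all 8 libraries no member passed the test. Limma called 0 of the 8 members tested and 0 of 11122 genes (0% higher, 0% lower), also with limma-voom on recovered reads. At an unadjusted p under 0.05, 1 member was higher (IL36RN) and 1 lower (IL1B), against 14% and 16.3% of all genes. The log2 fold changes over 8 libraries were -1.24 ± 0.50 for IL1B, -0.46 ± 0.24 for IL1A and 0.68 ± 0.28 for IL36RN (SE, limma adjusted p = 0.144, 0.218 and 0.152). Single libraries weighed on them: IL1B was at -0.76 without DMOG replicate 4 and IL36RN at 0.44 without vehicle replicate 1. All 10 members had overlapping groups, where 15.1% of all tested genes did not. Without DMOG replicate 2, IL1B was lower (log2 fold change -1.72, limma adjusted p = 0.0114) and IL36RN higher (0.84, adjusted p = 0.0491), where 17.7% of genes were lower and 15.5% higher, and IL1A did not pass (-0.64, adjusted p = 0.0573).

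In the 6-library comparison the transcripts of both classical IL-1 agonists fell and that of the IL-36 receptor antagonist rose, while the IL-1 receptor antagonist and both receptor chains did not pass the test. Of the 8 members tested, 2 were lower and 1 higher, shares of the same order as the 16.1% of all genes called lower and 13.7% called higher. With RPKM as deposited 2 members were lower and 0 higher, where 34.5% of genes were lower and 6.13% higher. The authors' deposited table has 2 of the 10 members lower (IL1A and IL1B) and 2 higher (IL36RN and IL1RAP), where 17.6% of its genes were lower and 18.8% higher. All 8 members tested had more than 1 RPKM in every library, so the filter on low values did not select them by group. In bulk cultures fewer cells of a kind and less RNA per cell cannot be told apart.

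IL1B, the precursor of secreted IL-1β, had 64.7, 207, 69.2 and 22.3 RPKM in DMOG replicates 1 to 4, against 275, 161, 190 and 145 RPKM in vehicle replicates 1 to 4. Replicates 1, 3 and 4 with DMOG lay below every vehicle library, and replicate 2 with DMOG lay inside the vehicle range. Over the 6 libraries IL1B averaged 52.0 ± 25.9 RPKM with DMOG and 203 ± 66.1 with vehicle (SD, n = 3 each), and its log2 fold change was -1.76 ± 0.42 (SE, limma adjusted p = 0.0238). The authors' deposited table gives a log2 ratio of -1.68 (adjusted p = 0.000234). The call was lost without DMOG replicate 1 (0.054) or vehicle replicates 1 (0.0842), 3 (0.0642) and 4 (0.0501) and with no filter (0.0586), within a range of adjusted p from 0.00735 to 0.0842 over 13 alternatives, all with a negative fold change.

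IL1A, which encodes the IL-1α that keratinocytes hold in store, had 94.4, 175, 110 and 72.6 RPKM in DMOG replicates 1 to 4, against 215, 114, 150 and 236 RPKM in vehicle replicates 1 to 4. Replicate 2 was the highest of the DMOG libraries and the lowest of the vehicle libraries, and the groups of 4 overlapped. Over the 6 libraries the mean was 92.4 ± 18.9 RPKM with DMOG and 200 ± 44.8 with vehicle (n = 3 each), a log2 fold change of -0.80 ± 0.19 (limma adjusted p = 0.0226), and the groups did not overlap. IL1A and IL1B are 2 of the members tested with DMOG wholly below vehicle in the 6 libraries, a pattern that 45.6% of all tested genes showed on the deposited scale. The authors' deposited table gives IL1A a log2 ratio of -0.81 (adjusted p = 0.00101). The call was lost without DMOG replicate 1 (0.0745) or vehicle replicates 1 (0.0847) and 4 (0.0783), within a range of 0.0089 to 0.0847 over 13 alternatives.

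IL36RN, which blocks the IL-36 receptor, had 25.7, 14.7, 23.3 and 14.5 RPKM in DMOG replicates 1 to 4, against 8.07, 17.5, 13.4 and 16.4 RPKM in vehicle replicates 1 to 4. DMOG replicates 1 and 3 lay above every vehicle library, and DMOG replicates 2 and 4 lay among them. Over the 6 libraries the mean was 21.2 ± 5.90 RPKM with DMOG and 12.6 ± 4.21 with vehicle (n = 3 each), a log2 fold change of 1.00 ± 0.28 (limma adjusted p = 0.0355). The authors' deposited table gives a log2 ratio of 1.04 (adjusted p = 0.00373). The call depended on the scaling and on single libraries: adjusted p = 0.0868 with RPKM as deposited (log2 fold change 0.71), 0.0774 with no filter, 0.117 and 0.0594 without DMOG replicates 1 and 3, and 0.09, 0.0702 and 0.0564 without vehicle replicates 1, 3 and 4. Over 13 alternatives the fold change was positive throughout and adjusted p ran from 0.0239 to 0.117.

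**Figure D2:**
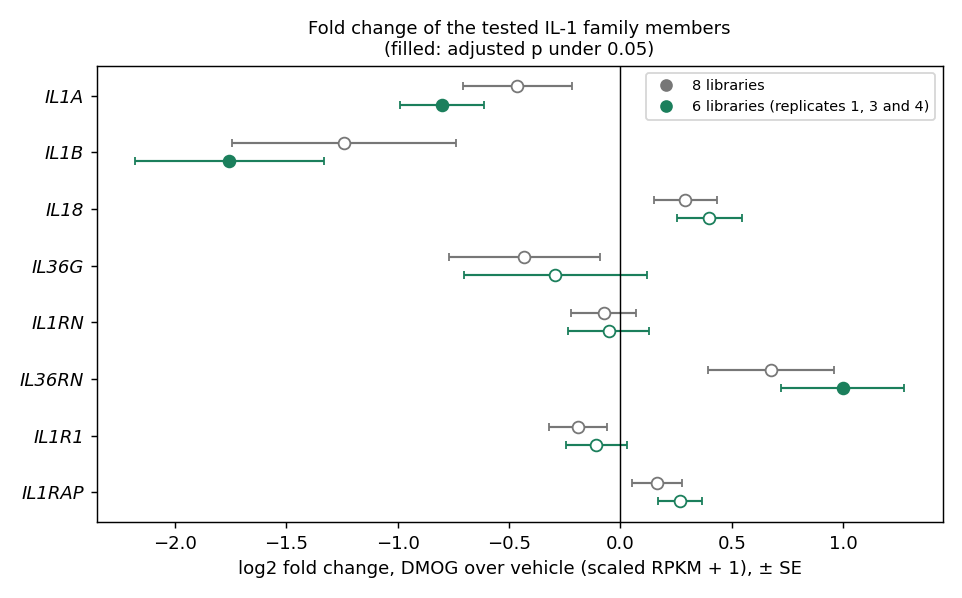
Log2 fold change with its SE for the 8 tested members, over 8 libraries (grey) and 6 libraries (green), filled where the adjusted p was under 0.05. The filled points are IL1A at -0.80, IL1B at -1.76 and IL36RN at 1.00, all from the 6 libraries.

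IL18, which like IL1B needs caspase-1 for its active form, did not pass the test. It had 39.3, 33.6, 42.7 and 28.0 RPKM in DMOG replicates 1 to 4, against 31.5, 33.0, 35.3 and 33.7 in vehicle replicates 1 to 4, and the groups overlapped. Its log2 fold change over 6 libraries was 0.40 ± 0.15 (limma adjusted p = 0.0755), but 0.11 on RPKM as deposited. It was called higher with the replicate number as a block (adjusted p = 0.0429) and without DMOG replicate 4 (0.0189), in a range of 0.0189 to 0.635 over 13 alternatives. IL36G, an IL-36 agonist of differentiating keratinocytes, had 3.65, 3.91, 6.07 and 1.32 RPKM in DMOG replicates 1 to 4, against 3.91, 7.59, 7.69 and 4.29 in vehicle replicates 1 to 4 (log2 fold change over 6 libraries -0.29 ± 0.41, limma adjusted p = 0.606).

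IL33 had 0.121, 0.433, 0.114 and 0.0946 RPKM in DMOG replicates 1 to 4, or 8 to 40 reads a library, against 0.475, 0.712, 0.25 and 0.271 RPKM in vehicle replicates 1 to 4, or 25 to 67 reads. DMOG replicates 1, 3 and 4 lay below every vehicle library and DMOG replicate 2 among them. Over the 6 libraries 45.6% of all tested genes, which do not include IL33, had DMOG wholly below vehicle on the deposited scale. IL33 fell under the filter and was tested only in the fit without one, with a limma adjusted p of 0.083 over the 6 libraries. The authors' deposited table gives it a log2 ratio of -1.28 (adjusted p = 0.0534).

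IL1RN had 456, 544, 615 and 360 RPKM in DMOG replicates 1 to 4, against 552, 577, 637 and 603 in vehicle replicates 1 to 4. The groups overlapped, and the log2 fold change over 6 libraries was -0.05 ± 0.18 (limma adjusted p = 0.838). The ratio of IL1RN to the sum of IL1A and IL1B was 2.86, 1.42, 3.43 and 3.80 in DMOG replicates 1 to 4, against 1.126, 2.10, 1.87 and 1.58 in vehicle replicates 1 to 4. DMOG replicates 1, 3 and 4 were above every vehicle library and DMOG replicate 2 was within their range. The ratio of IL36RN to IL36G was 7.05, 3.77, 3.83 and 10.97 in DMOG replicates 1 to 4, against 2.06, 2.31, 1.75 and 3.82 in vehicle replicates 1 to 4, so DMOG replicates 1, 3 and 4 exceeded all vehicle libraries, replicate 3 narrowly. The ratio of IL1A to IL1B averaged 1.79 ± 1.03 with DMOG and 0.978 ± 0.436 with vehicle (n = 4 each) and was highest in replicate 4 of both groups (3.26 with DMOG, 1.63 with vehicle). These ratios are combinations of the members and were not tested, and how often other ratios separate the groups was not worked out.

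**Figure D3:**
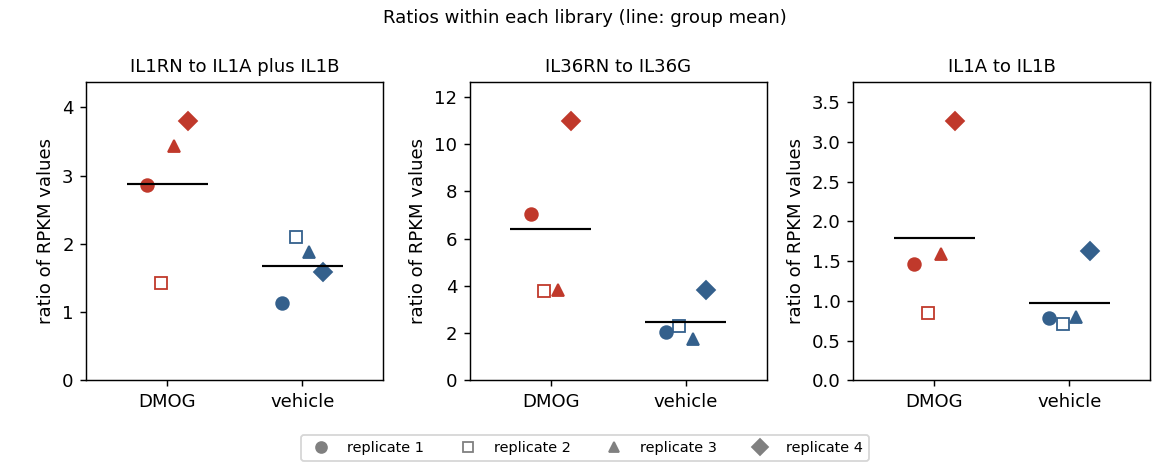
Ratios of RPKM values within each library, DMOG left and vehicle right, on linear axes from 0, with a line at the group mean. In the left and middle panels DMOG replicate 2 (open square) lies within the vehicle range, at 1.42 and 3.77.

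Among the receptors, IL1R1 had 2.19, 2.46, 2.69 and 1.93 RPKM in DMOG replicates 1 to 4, against 2.64, 3.55, 3.44 and 3.21 in vehicle replicates 1 to 4, a log2 fold change over 6 libraries of -0.11 ± 0.14 (limma adjusted p = 0.564). The groups of 4 overlapped. IL1RAP, the chain shared by the IL-1, IL-33 and IL-36 receptors, had 12.7, 12.5, 12.5 and 10.3 RPKM in DMOG replicates 1 to 4, against 11.9, 13.3, 11.96 and 11.9 in vehicle replicates 1 to 4. Its log2 fold change over 6 libraries was 0.27 ± 0.10 (limma adjusted p = 0.0775). That value was -0.01 with RPKM as deposited (adjusted p = 0.944), and IL1RAP was called higher without DMOG replicate 4 (0.0486). The authors' deposited table gives IL1RAP a log2 ratio of 0.30 (adjusted p = 0.0349). The ratio of IL1RAP to IL1R1 was 5.81, 5.07, 4.65 and 5.35 in DMOG replicates 1 to 4, against 4.52, 3.76, 3.48 and 3.70 in vehicle replicates 1 to 4. The groups of 4 did not overlap in this ratio. Among single tested genes 15.1% did not overlap over the 8 libraries, and no such share was worked out for ratios. The ratio was not tested. IL1R2 had 0.721, 0.827, 0.51 and 0.188 RPKM in DMOG replicates 1 to 4, against 0.27, 0.626, 0.206 and 0.225 in vehicle replicates 1 to 4, or 10 to 48 and 13 to 37 reads. Its groups overlapped, and it was tested only without a filter (limma adjusted p = 0.196 over 6 libraries).

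The pattern of each tested member over the 8 libraries was set beside all other tested genes, by the root-mean-square difference of log2 values taken from the vehicle mean. This difference takes in the size of a change as well as its shape. It is a description, shared regulation was not tested, and how many genes lie at such differences was not worked out. The genes nearest to IL36RN were TMPRSS11E, a serine protease of squamous epithelia (difference 0.21), and CNFN, which encodes cornifelin of the cornified envelope (0.23). Nearest to IL1B were SLC1A5, a glutamine transporter (0.28), and IFRD2 (0.28). Nearest to IL1A were TYSND1, a peroxisomal protease (0.13), and GALNT7, an enzyme of O-linked glycan synthesis (0.14). IL36G lay nearest to SDF2L1 and MYEOV (0.16 each). IL1RN lay nearest to EIF4G1, a translation initiation factor, and STX12 (0.05 and 0.06), IL18 to SH3BP5L and PRKCH (0.06 each), IL1R1 to BTBD1 and NAPG (0.05 and 0.06), and IL1RAP to TMOD3 and NDST2 (0.04 and 0.05).

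Of 12 further ligands and receptors of the family, 3 passed the filter, and in the 6 libraries 1 was lower and 0 higher. Of all genes tested, 16.1% were lower and 13.7% higher, and 3 genes are too few to be told apart from these shares. The gene that fell was IL36A, an IL-36 agonist encoded between IL36G and IL36RN (chromosome 2, 113763449 to 113765621), with 21.7 ± 12 RPKM with DMOG and 64.7 ± 11.1 with vehicle (SD, n = 3 each, log2 fold change -1.42 ± 0.43, limma adjusted p = 0.0465). Replicate 2 had 63.9 RPKM with DMOG and 52.1 with vehicle, so over 8 libraries it did not pass (adjusted p = 0.164). The call was lost in 6 of 13 alternatives, among them those without DMOG replicate 1 (0.0771) and vehicle replicates 1 (0.0946), 3 (0.126) and 4 (0.116). IL36A was thus the more abundant IL-36 agonist message in these cultures, above IL36G in both groups. IL1RL2, the IL-36 receptor chain, had 1.37 ± 0.381 RPKM with DMOG and 1.65 ± 0.707 with vehicle (log2 fold change 0.05, adjusted p = 0.877). SIGIRR, an inhibitory receptor of the family, was at 0.06 (adjusted p = 0.818). With no filter 11 of the 12 were tested over the 6 libraries, and 1 was lower and 0 higher. That gene was IL18R1 (-0.33, limma adjusted p = 0.0391), under 1 RPKM in all 8 libraries. IL18BP, also under the filter, was not called (0.42, 0.165). The authors' deposited table gives IL18R1 a log2 ratio of -1.22 (adjusted p = 0.00303) and IL18BP 0.97 (0.0367).

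The enzymes and sensors that process or release these cytokines included CASP1, which fell with IL1B. Of 25 genes, 16 passed the filter, and in the 6 libraries 1 was higher and 3 lower, counts that lie near the 13.7% and 16.1% of all genes, with a median log2 fold change of -0.06 beside -0.00 over all genes tested. CASP1 had 5.24 ± 1.11 RPKM with DMOG and 13.2 ± 1.11 with vehicle (SD, n = 3 each, log2 fold change -0.93 ± 0.13, limma adjusted p = 0.00635), and it was called lower under all 13 alternatives to this 6-library fit (adjusted p 0.00193 to 0.0385). In replicate 2 it had 13.2 RPKM with DMOG and 9.47 with vehicle, and over 8 libraries it did not pass (adjusted p = 0.141). CARD16, which arose from a copy of the CASP1 start and may share reads with it, fell by 0.95 on the log2 scale (adjusted p = 0.0241), and CASP8, a caspase that can also cleave the IL-1β precursor, fell by 0.60 (0.0274). GSDMC, a pore-forming gasdermin, rose (0.75, adjusted p = 0.0134). These calls were less stable than that of CASP1: CARD16 and GSDMC were each called in 9 of 13 alternatives and CASP8 in 7. With no filter CARD16 (limma adjusted p = 0.0536) and CASP8 (0.0525) were not called, and on RPKM as deposited GSDMC was not (0.0606). PYCARD and NLRP1, an adaptor and a sensor of the inflammasome in keratinocytes, were at -0.12 (0.544) and 0.08 (0.613). With no filter 24 genes were tested, and 1 was higher and 2 lower (1166 and 1431 among all genes). NLRC4 was then lower (limma adjusted p = 0.0195), at means of only 0.00293 RPKM with DMOG and 0.152 with vehicle over the 6 libraries. CASP5, also under the filter, was not called (0.0646). The authors' deposited table gives them log2 ratios of -5.44 (adjusted p = 0.000229) and -2.71 (0.0391). With the replicate block 2 genes were higher and 6 lower, while leaving out 1 library left 0 or 1 higher and 1 to 4 lower. The fewest calls came without DMOG replicate 1 or vehicle replicate 1 (0 higher, 1 lower each), then vehicle replicate 3 (1 and 1) and vehicle replicate 4 (0 and 2).

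Of 25 genes of the receptor cascade 23 passed the filter, and 9 were higher, 0 lower and 14 not called over the 6 libraries (13.7% and 16.1% of all genes were higher and lower), with a median log2 fold change of 0.10 beside -0.00 over all genes tested. TNIP1, a restraint on NF-κB signalling, had the largest change (0.78, limma adjusted p = 0.0103), followed by RELA, an NF-κB subunit (0.62, 0.0185), TRAF6, the ubiquitin ligase downstream of IRAK kinases (0.58, 0.0181), MYD88, the receptor adaptor (0.54, 0.034), TAB3 (0.53, 0.0215) and PELI1 (0.47, 0.0277). This direction depended on the scaling: on RPKM as deposited there were 2 higher and 5 lower, and the median was -0.16, where that of all genes was -0.26. Without DMOG replicate 1, vehicle replicate 1 or vehicle replicate 4, 1 was higher and 0 lower, and without DMOG replicate 3, 8 were higher and 3 lower (IRAK1, NFKB1 and CHUK). IRAK1, a kinase recruited through MYD88, was at -0.47 in the 6-library fit (limma adjusted p = 0.0554) and was called lower in 4 of 13 alternatives, the replicate block among them. The authors' deposited table gives IRAK1 a log2 ratio of -0.46 (adjusted p = 0.0382).

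Genes known to be induced by IL-1 or NF-κB were called in both directions over the 6 libraries. In the main fit their shares were near those of all genes (13.7% higher, 16.1% lower), and the balance changed with the filter. Of 39 listed genes, 20 passed the filter, and 4 were higher and 3 lower over the 6 libraries, with a median log2 fold change of -0.11. CCL20, a chemokine for dendritic cells and lymphocytes, had 0.454 ± 0.0869 RPKM with DMOG and 2.87 ± 0.772 with vehicle (SD, n = 3 each, log2 fold change -1.23 ± 0.16, limma adjusted p = 0.00535), with a call under all 13 alternatives to this fit (0.00309 to 0.0344). It was under 1 RPKM in all 4 DMOG libraries and passed the filter only through the vehicle group, so its place among the tested genes already favoured a difference; with no filter its adjusted p was 0.0159. Over 8 libraries CCL20 did not pass (adjusted p = 0.118). SOD2, mitochondrial superoxide dismutase, fell by 0.58 on the log2 scale (adjusted p = 0.0111) and ZC3H12A, an RNase that degrades cytokine messages, by 0.52 (0.0406). The collagenase MMP1 rose (1.27, adjusted p = 0.03), as did NFKBIA, the inhibitor of NF-κB (0.84, 0.0278), MMP3, a stromelysin above 1 RPKM in all 4 DMOG and 2 vehicle libraries (0.75, 0.0254), and NFKBIZ, a nuclear cofactor of NF-κB (0.56, 0.0184). MMP3 thus needed the DMOG libraries to pass the filter. With no filter it was not called (limma adjusted p = 0.0524), nor were MMP1 (0.069) and NFKBIA (0.0611). Of the genes that fell, ZC3H12A also lost its call with no filter (0.0759), and it was called in 8 of 13 alternatives. LCN2, S100A8 and S100A9, abundant keratinocyte products of inflammation, were at -0.34 (0.333), -0.06 (0.862) and -0.19 (0.633). Leaving out DMOG replicate 1 gave 1 higher and 1 lower, and leaving out vehicle replicates 1, 3 or 4 gave 0, 2 or 0 higher and 1, 3 or 2 lower. On RPKM as deposited there were 2 higher and 4 lower, and with the replicate block 4 higher and 5 lower, CSF3 and SAA1 being added. With no filter 37 listed genes were tested, and 1 was higher and 4 lower (1166 and 1431 among all genes). The filter of 2 libraries let in 25, and 4 were higher and 5 lower (1565 and 1788 among all genes).

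**Figure D4:**
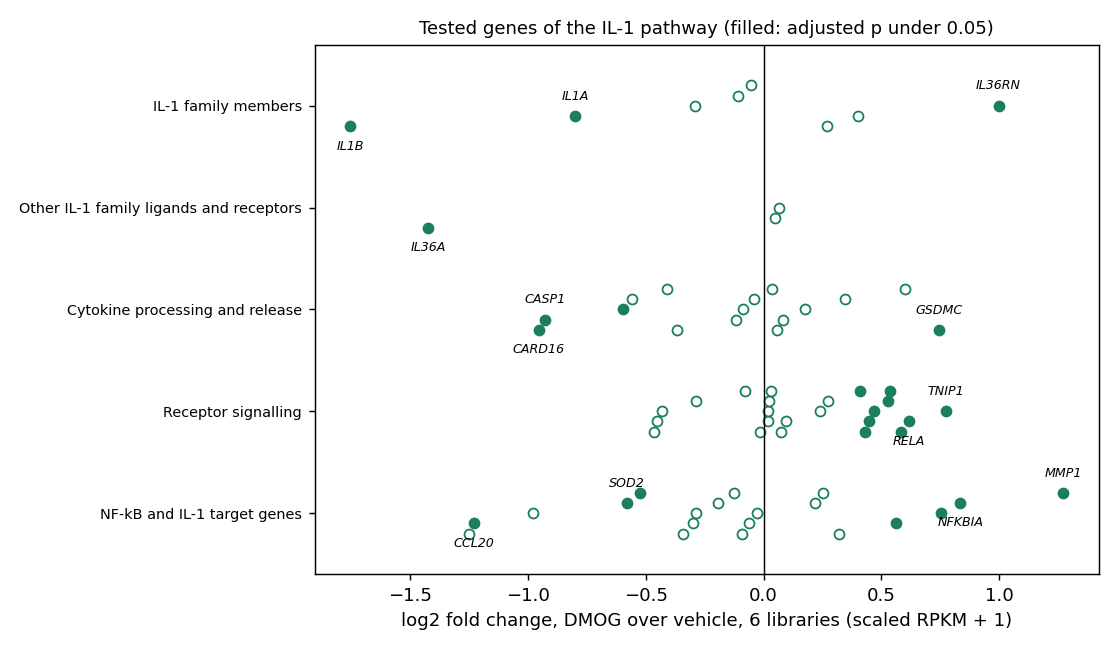
Log2 fold change over the 6 libraries of every tested gene in the members and 4 pathway lists, filled where the adjusted p was under 0.05, with the outermost called genes named. IL1B at -1.76 and IL36A at -1.42 lie farthest left and MMP1 at 1.27 farthest right among the filled points.

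Markers of other cells were checked because leukocytes and stroma also express this family. Of 24 such markers, 20 stayed under 1 RPKM in all 8 libraries, and CDH5, CLC, CPA3, DCN, EPX, LUM and TPSAB1 were among those listed at 0 throughout. The level summed over the list was 83.8 to 119 RPKM with DMOG and 60.3 to 88.9 with vehicle, most of it CD68 and COL1A1, which were called higher in the 6 libraries (log2 fold changes 0.79 and 1.32, limma adjusted p = 0.0388 and 0.00535), while CD14 was called lower (-1.05, 0.00597), a gene that needed the vehicle libraries to pass the filter. PTPRC, the leukocyte marker, had at most 0.00395 RPKM. Keratinocyte markers summed to 28820 to 32820 RPKM with DMOG and 22900 to 33760 with vehicle. Of the 11 tested, 5 were higher and 0 lower in the 6 libraries, where 13.7% of all genes were higher and 16.1% lower. The 5 were SPRR1B of the cornified envelope (log2 fold change 0.96, limma adjusted p = 0.0125), KRT6A (0.77, 0.0116), KRT5 (0.75, 0.0292), KRT14 (0.69, 0.0154) and DSG3 (0.36, 0.0486). Not called were IVL (1.24, 0.0556), KRT15 (0.57, 0.133), KRT13 (0.09, 0.933), CDH1 (-0.12, 0.582), TP63 (-0.28, 0.0859) and KRT4 (-0.56, 0.507). The replicate block added IVL (6 higher). On RPKM as deposited there were 2 higher and 1 lower (TP63), and without vehicle replicate 1 or 4 none was. What part such shifts in the layer had in the values of IL1A, IL1B and IL36RN was not tested.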

How the data were processed

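The authors deposited RPKM values for 25369 genes in 8 libraries, in a table whose name speaks of raw counts. The submitters' processing notes name HTSeq 0.6.1, TopHat2 2.0.13 and Picard 1.129 among other tools, without roles. Positions are hg19, and how strand and multi-mapped reads were handled is not stated in the labels or files. RPKM times gene length gave whole reads for 100% of values above 0 (tolerance 0.01 reads), and a gene at 0 allows up to 3 reads (counting error only). Reads were recovered for genes with a single listed position (597 have several). The most alike of 28 library pairs had a chi-square of 19.7 per degree of freedom, so no library repeats another. That pair crosses the groups (DMOG replicate 2 and vehicle replicate 1), and the most alike pair within a group had 34.7 (vehicle replicates 1 and 4).

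The authors' comparison, a separate deposited table, covers 13424 genes and, per the file headers, lists group means (signal), their ratio or fold, the log2 of that ratio and p-values, raw and adjusted. In it 18.8% of genes had an adjusted p under 0.05 and a higher value and 17.6% a lower one. Its means were fitted by replicates 1, 3 and 4 of each group alone.

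Genes reaching 1 RPKM in 4 or more libraries (11122) entered limma-trend (limma 3.58.1 in R 4.3.3, with robust moderation) on log2(RPKM divided by a median-ratio factor, + 1), two-sided, with Benjamini-Hochberg adjustment over all genes and a threshold of 0.05. The code was tested on simulated data. Alternatives were RPKM as deposited, upper-quartile factors, a pseudocount of 0.1, no filter, a filter of 2 libraries, limma-voom on recovered reads, the replicate number as a block, and leaving out each library. Same-numbered libraries deviated together in the 6 libraries (correlations 0.466, 0.397 and 0.341 for numbers 1, 3 and 4), so they may be paired. That reading rests on these correlations alone. The main 6-library fit made no use of this possible pairing. Its p-values are those of an unpaired comparison, and the replicate block is the alternative that takes the pairing in. In the 8 libraries numbers 3 and 4 deviated together (0.529 and 0.238) but numbers 1 and 2 did not (0.073 and -0.0202), so these were not taken as paired. There DMOG replicate 1 was most like vehicle replicate 2 (0.22), and DMOG replicate 2 most like vehicle replicate 1 (0.2). The members, lists and tests were chosen with earlier results of these data known. All 10 members were named, with up to 6 called genes per list and direction, genes needed beside a member, and the 2 genes most like each tested member.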

Additional observations from a re-analysis of the deposited data

Results flagged for a closer look

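A single library stood far from the other 3 of its group for 4 of the 20 member and group combinations, where chance flags about 1 in 20. IL33 had 0.433 RPKM in DMOG replicate 2, well above the other DMOG libraries. IL1RAP had 10.3 RPKM in DMOG replicate 4 and 13.3 RPKM in vehicle replicate 2, the lowest and the highest of their groups. IL1R2 had 0.626 RPKM in vehicle replicate 2, well above the other vehicle libraries.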

How the results depend on the processing

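Over 8 libraries the number of genes called was 0 under every alternative, except that leaving out each library gave 0 to 3694 genes and 0 to 2 members, the highest of both without DMOG replicate 2. Over 6 libraries 3318 genes and 3 members were called (1526 genes higher and 1792 lower, but 682 and 3836 with RPKM as deposited). Leaving out each library in turn gave 918 to 4751 genes and 0 to 5 members, with 0 members without DMOG replicate 1, vehicle replicate 1 or vehicle replicate 4, and with no filter 1 member was called (IL1A). The replicate block gave 4518 genes and 4 members, adding IL18, over 6 libraries and 0 over 8, and it changed no other member's call. Directions that turned were those of IL1RAP with RPKM as deposited (log2 fold change -0.0305 over 8 libraries and -0.0116 over 6), of IL1RN without DMOG replicate 4 (0.0239 over 8, 0.0958 over 6) and vehicle replicate 3 (0.01 over 6), and of IL36G without DMOG replicate 4 (0.13 over 6), none past the threshold, and the cause was not tested. Leaving out each library moved IL1RN between -0.193 and 0.0239 over 8 libraries and between -0.231 and 0.0958 over 6, and IL36G between -0.655 and 0.133 over 6. RPKM as deposited moved the median of all genes to -0.18 over 8 libraries and -0.26 over 6. IL33 and IL1R2, at 8 to 67 reads a library, limit any comparison of them.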
